A study of Mus musculus with 20 samples.

Results

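MicroRNAs of whole mouse hearts were compared between all 11 hearts that had CIH and all 9 hearts that had not, with myocardial infarction (MI) as the second factor. All 20 hearts of the series enter, each with 1 small RNA library from C57BL/6J mice. The labels give CIH as letters only. They are taken here to mean chronic intermittent hypoxia, because the series title speaks of breathing disorders of sleep and of the heart after MI. The exposed hearts were 4 with CIH alone (CIH) and 7 with MI and CIH together (MI+CIH), and the unexposed hearts were 5 after a sham procedure (sham) and 4 after MI alone (MI). Infarction was therefore more frequent among the exposed hearts (7 of 11) than among the unexposed (4 of 9), and the main comparison holds it constant. The length and depth of the hypoxia, the time after infarction, and the age and sex of the mice are not given in the sources used here, and the labels do not divide the heart into scar and remaining muscle. The titles number the hearts but do not say that they came from separate animals, so p-values measure the spread between these samples, which may be technical. Of 1545 entries in the table, 360 reached 5 RPM (the reads of a miRNA as a share of all miRNA-assigned reads of its library, scaled so that each library sums to 1000000) in at least 4 hearts, and these were tested.

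Intermittent hypoxia exposes an animal to repeated short falls in inhaled oxygen and serves as a model of the breathing pauses of sleep apnoea. Cells respond to low oxygen mainly through hypoxia-inducible factors (HIF), which switch on genes of glycolysis, red cell production and vessel growth, and among miRNAs most directly miR-210. Mature miRNAs are short RNAs loaded into Argonaute proteins. They repress messenger RNAs that pair with their seed, the bases near the 5′ end. In a whole heart the RNA comes from muscle cells, fibroblasts, vessel cells and blood together, so fewer cells of a type and less RNA per cell cannot be told apart.

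Mature sequences of miRNAs on which the comparison turns are given here, because their seeds show which of them could share targets; miR-375-3p is given by name only. They are RefSeq entries of GRCm38.p6, written 5′ to 3′ with the seed (bases 2 to 8) in capitals. The first 7 are among those with the smallest p in either fit, miR-9-5p and miR-9b-3p were the lower ones among these, and miR-210-3p and miR-214-3p are shown as markers of HIF activity and of fibroblasts.
miR-363-3p: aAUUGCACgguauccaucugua
miR-451a: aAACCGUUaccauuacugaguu
miR-34b-3p: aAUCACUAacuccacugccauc
miR-34c-3p: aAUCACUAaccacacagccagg
miR-182-5p: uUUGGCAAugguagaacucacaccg
miR-200a-3p: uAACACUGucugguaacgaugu
miR-206-3p: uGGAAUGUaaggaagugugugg
miR-9-5p: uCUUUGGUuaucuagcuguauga
miR-9b-3p: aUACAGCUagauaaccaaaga
miR-210-3p: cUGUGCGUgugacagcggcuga
miR-214-3p: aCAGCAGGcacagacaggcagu
miR-34b-3p and miR-34c-3p share AUCACUA. The seed of miR-363-3p, AUUGCAC, is also that of miR-25-3p, miR-32-5p, miR-92a-3p and miR-92b-3p, all of which were tested.

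Recovered reads ran from 1991323 to 18138415 per library, so that 1 read was worth 0.0551 to 0.502 RPM, and at least 99.9% of the reads of each library lay in the tested entries. By their correlation the libraries formed 3 sets, which no label names. Set A contained every uninfarcted heart, MI 2 and MI+CIH 1. Set B contained MI 1 and MI 3 together with MI+CIH 2, 3, 4 and 5, and the remaining MI 4, MI+CIH 6 and MI+CIH 7 made up set C. Within a set Pearson's r across the tested miRNAs was 0.908 to 0.994 (73 pairs of libraries), and across sets it was 0.710 to 0.932 (117 pairs). Exposed hearts were in all 3 sets: 5 of the 11 hearts of set A, 4 of the 6 of set B and 2 of the 3 of set C. Both groups of uninfarcted hearts lay wholly in set A, so the set was added as a further term in a second fit. Sham 1, MI 2 and, among the exposed hearts, MI+CIH 1 lay far from the rest of their groups. Sham 1 and MI 2 are both unexposed, so an exchange of these hearts would leave the 11 against 9 hearts as they are. It would change the infarction term and each comparison within an infarction state. The CIH difference with infarction as second factor would therefore change as well.

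**Figure D1:**
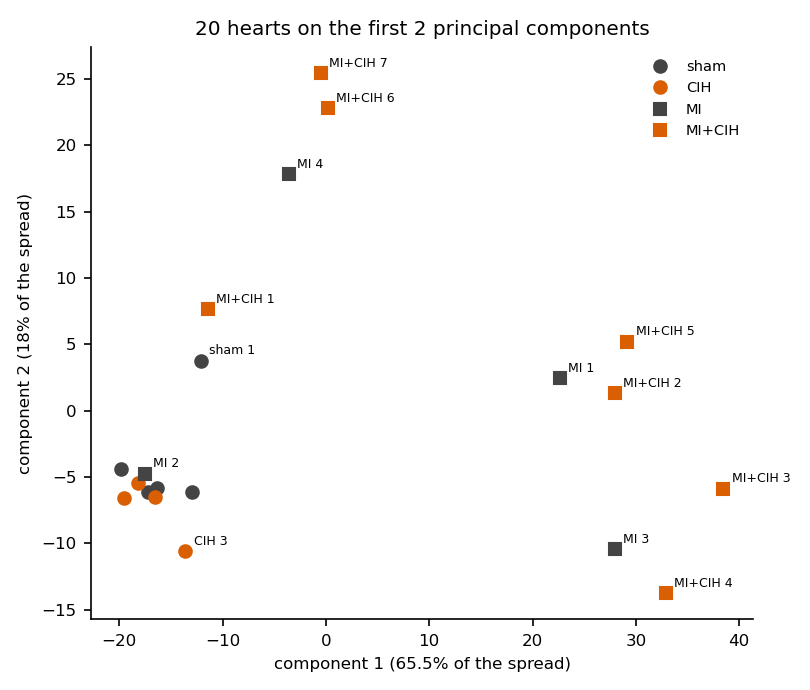
The 20 hearts on the first 2 principal components of log2(RPM + 1), which hold 65.5% and 18% of the spread over the 360 miRNAs. Orange symbols are hearts with CIH and grey symbols hearts without, squares are infarcted and circles uninfarcted; hearts with and without CIH are mixed in the cloud at the lower left (set A), while each of the other clouds holds hearts of both kinds and too few to compare.

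No miRNA passed the test for CIH with infarction as the second factor (limma, adjusted p under 0.05, 0 of 360, 0%). The smallest adjusted p was 0.998. An unadjusted p under 0.05 was reached by 7 miRNAs (1.94%), and each of the 7 had the higher mean in the exposed hearts. They were miR-375-3p, miR-363-3p, miR-451a, miR-34b-3p, miR-182-5p, miR-34c-3p and miR-200a-3p. edgeR's quasi-likelihood test on the recovered reads also called 0, with 7 at an unadjusted p under 0.05. DESeq2 on the same reads called 1 (0.278%), miR-375-3p, with a log2 change of 2.63 and an adjusted p of 0.0165. No miRNA had all 11 exposed hearts above all 9 unexposed hearts (0%), and none had all of them below (0%).

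With the library set as a further term, the same test called 0 of 360 (0%). The smallest adjusted p was then 0.153, for miR-375-3p (limma). Here 13 miRNAs had an unadjusted p under 0.05 (3.61%), 10 of them higher and 3 lower with CIH. By edgeR 0 were called and 12 had an unadjusted p under 0.05. DESeq2 called 1 (0.278%), again miR-375-3p (log2 change 2.62, adjusted p 0.000202). The median size of a difference, whatever its sign, was 0.20 without the set and 0.14 with it. The median width of the 95% interval to either side was 0.94 on the log2 scale without the set and 0.53 with it. Without the set, the interval lay within a 2-fold change in either direction for 124 miRNAs (34.4%) and within a 4-fold change for 342 (95%). With the set these numbers were 301 (83.6%) and 353 (98.1%). The sets were found from these same values, so part of this narrowing is built in. A 4-fold change with CIH, over both infarction states together, was thus outside the interval for nearly all miRNAs.

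The median log2 difference over the 360 miRNAs was 0.12 with infarction as the second factor, and 245 of 360 were positive. Because RPM are shares of a library, the reads were also scaled by median-of-ratios size factors. This scaling centres the ratios of each library by construction, so the median of -0.0049 and the 176 of 360 positive differences that it gave say nothing about the surplus. With the set as a further term the median was 0.03 and 206 of 360 were positive. On the log2 scale 8 miRNAs were higher with CIH by more than 1, and 6 with the set; 0 were lower by more than 1 in either fit.

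**Figure D2:**
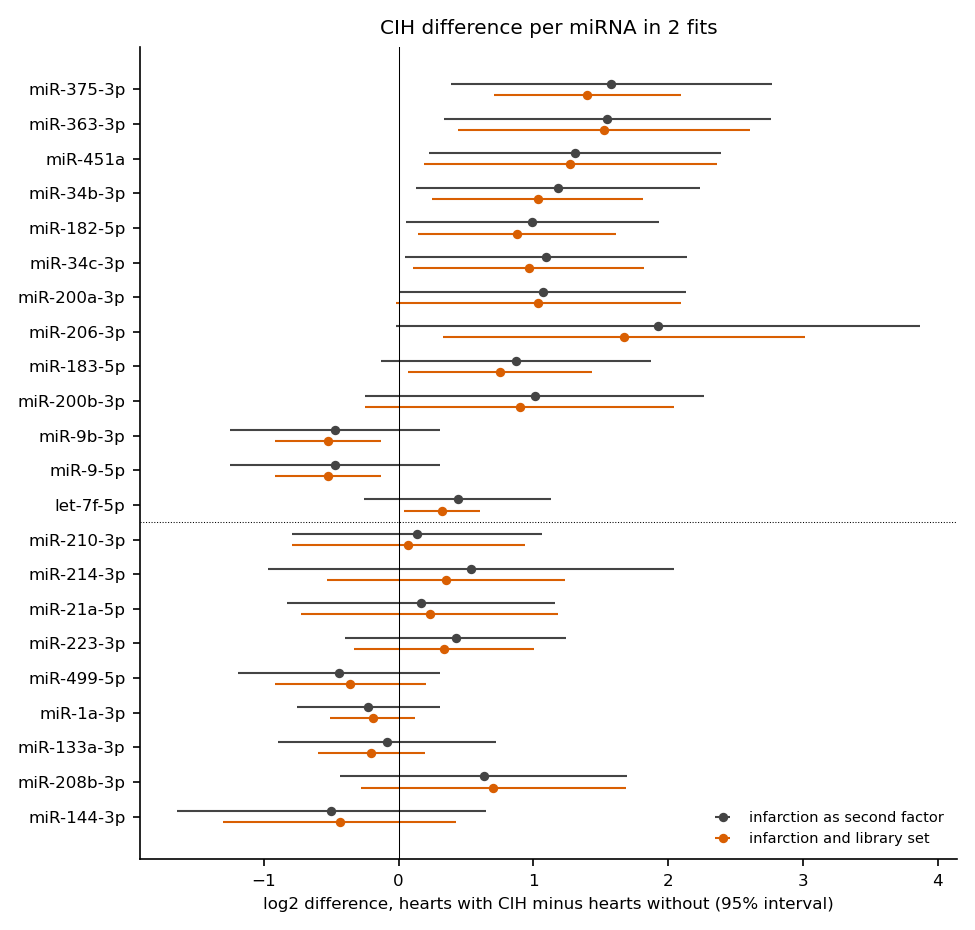
The log2 difference between hearts with and without CIH for each named miRNA, with its 95% interval, with infarction as second factor (grey) and with infarction and library set (orange). Above the dotted line are the miRNAs with the smallest p in either fit and below it other marker miRNAs; the intervals of miR-375-3p, miR-363-3p and miR-451a lie above 0 in both fits, those of miR-210-3p and miR-214-3p span 0, and none passed the adjusted threshold.

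miR-375-3p, best known from pancreatic islets and other endocrine and epithelial cells, had the smallest p in both fits and was rare in uninfarcted hearts. Its values in sham 1 to 5 were 0.183, 0, 0.293, 0.526 and 0 RPM, that is 0 to 3 reads. In the 4 CIH hearts they were 0.419, 0.584, 3.77 and 0.253 RPM. In MI 1 to 4 they were 17.9, 0.345, 7.97 and 0.882 RPM, and in the 7 MI+CIH hearts the lowest was 1.78, the median 26.5 and the highest 101.4 RPM. Uninfarcted hearts other than CIH 3 thus carried only traces, and the infarcted hearts of sets B and C carried more. Of the 11 exposed hearts 10 lay above the median of the unexposed hearts of their infarction state, and each of the 7 MI+CIH hearts lay above every MI heart of its own set. These counts describe a miRNA picked by its p over the same hearts and are not separate support. The share of all miRNAs with such counts is not given here. The same holds for such counts of the miRNAs below. The log2 difference was 1.58 (95% interval 0.39 to 2.77, unadjusted p = 0.0117, limma adjusted p 0.998), and 1.40 with the set (0.71 to 2.10, unadjusted p = 0.000426, limma adjusted p 0.153). On the log2(RPM + 1) scale the change of so rare a miRNA is understated.

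miR-363-3p, from an X-linked cluster related to miR-17/92 (GRCm38.p6, chromosome X, 52741693 to 52741767, minus strand, between annotated genes), was higher with CIH in both infarction states. It stood at 0.0913, 0.675, 0.489, 0.702 and 0.146 RPM in sham 1 to 5. In CIH 1 to 4 it was at 0, 11.3, 5.80 and 6.92 RPM, so that 3 of the 4 CIH hearts lay above every sham heart and CIH 1 below. The MI hearts had 11.7, 5.18, 0.295 and 5.02 RPM, and the 7 MI+CIH hearts had 1.48 at the lowest, 13.6 at the median and 47.3 at the highest. The 4 MI+CIH hearts of set B, at 13.6 to 47.3 RPM, lay above both MI hearts of that set. The 3 of sets A and C lay below the MI heart of theirs. Its log2 difference was 1.55 (0.34 to 2.76, unadjusted p = 0.0144), and 1.52 with the set (unadjusted p = 0.00826). It was the only miRNA with a difference over 1 in both states, 1.86 without and 1.28 with infarction. Its seed mates had differences of 0.26 (miR-25-3p), -0.35 (miR-32-5p), 0.37 (miR-92a-3p) and 0.88 (miR-92b-3p), none with an unadjusted p under 0.05.

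miR-451a, a red cell miRNA matured by Argonaute 2 without Dicer, was the most abundant of the 7. Its levels overlapped between sham and CIH hearts. Sham 1 to 5 had 307, 968, 1519, 3078 and 914 RPM, and CIH 1 to 4 had 559, 1950, 1119 and 1080 RPM. MI 1 to 4 had 916, 669, 95.7 and 763 RPM. The MI+CIH hearts ran from 1076 over a median of 2248 to 5680 RPM, each of them above each of the 4 MI hearts. It was the only miRNA whose MI+CIH hearts all lay above all MI hearts (1 of 360, 0.278%), and none had all of them below (0%). The log2 difference was 1.31 (0.22 to 2.39, unadjusted p = 0.0202), and 1.27 with the set (unadjusted p = 0.0240). Without MI 3, the lowest heart, the differences were 0.83 and 0.67.

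miR-451a and miR-144-3p come from neighbouring hairpins (GRCm38.p6, chromosome 11, plus strand, 78073170 to 78073241 and 78073005 to 78073070, between annotated genes), and both are raised as red cells mature. miR-144-3p differed by -0.50 (-1.64 to 0.65), opposite in sign to miR-451a. It was at 14.8, 7.42, 26.9, 26.3 and 17.0 RPM in sham and at 12.3, 6.42, 0.967 and 7.09 RPM in CIH hearts. The third erythroid miRNA, miR-486a-5p, differed by 0.22. Of the 6 erythroid entries tested, 4 were positive, 1 (miR-451a) had an unadjusted p under 0.05, and their median was 0.21 beside 0.12 for all miRNAs. The entry miR-486b-3p counts the reads of miR-486a-5p a second time. miR-486a-3p also followed miR-486a-5p closely (280.1 and 246.4 RPM in sham 1, 4564 and 4475 RPM in MI 1). The miR-486 entries are thus not separate observations in these counts and this median. The summed erythroid markers ran from 568.4 to 7127 RPM in unexposed and from 1087 to 15220 RPM in exposed hearts; the part of blood in the libraries was not tested.

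**Figure D3:**
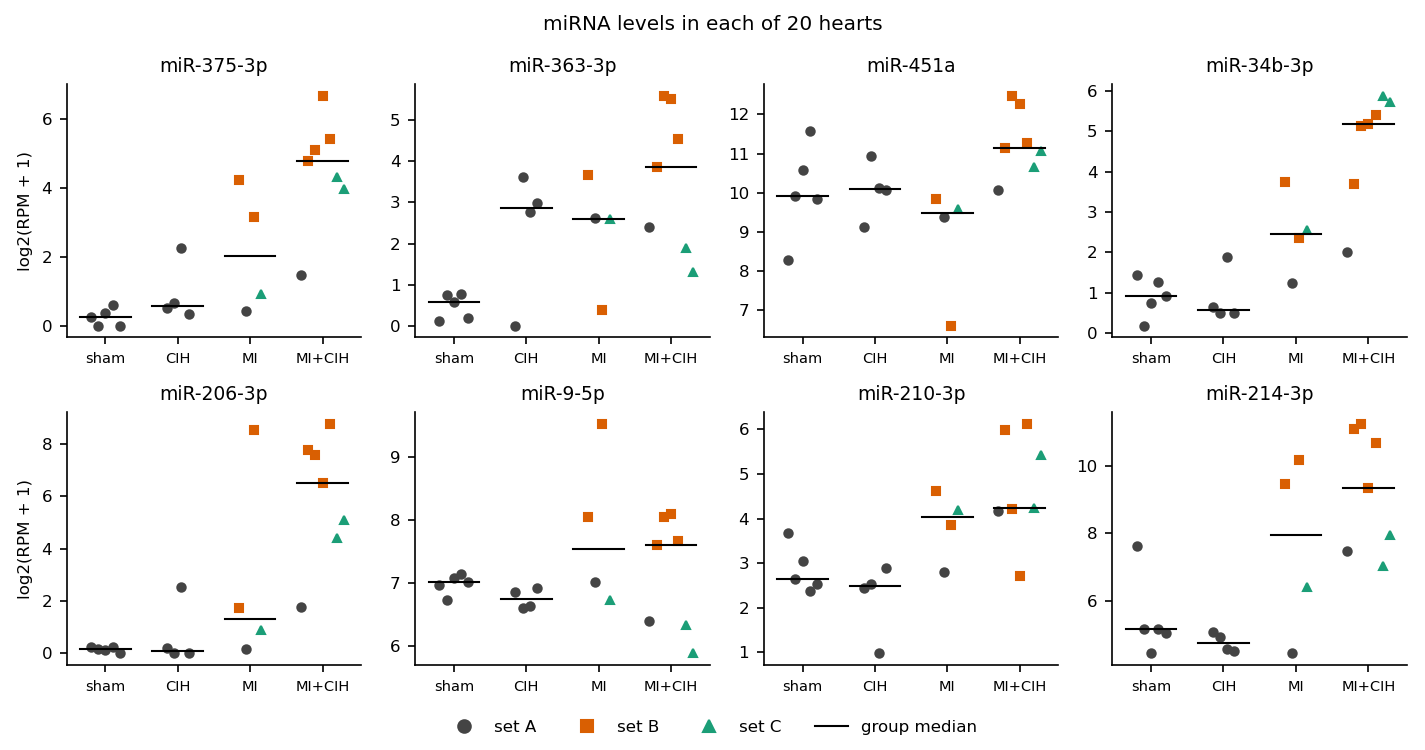
Level of 8 miRNAs as log2(RPM + 1) in each heart, by group, with the library set as symbol and the group median as a line. For miR-375-3p, miR-34b-3p and miR-206-3p the infarcted hearts of sets B and C lie above nearly all uninfarcted hearts, and for miR-210-3p and miR-214-3p the CIH hearts lie within or below the range of the sham hearts.

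The miR-34 family is known as a target of the p53 transcription factor and acts on cell cycle and survival genes. miR-34b and miR-34c lie together on chromosome 9 (GRCm38.p6, minus strand, 51103562 to 51103645 and 51103034 to 51103110), opposite an intron of Btg4. miR-34b-3p had 1.74, 0.135, 0.684, 1.40 and 0.879 RPM in sham 1 to 5 and 0.559, 0.417, 2.71 and 0.422 RPM in CIH 1 to 4. In MI 1 to 4 it had 12.5, 1.38, 4.13 and 4.91 RPM, and in MI+CIH hearts 3.00 at the lowest, 35.1 at the median and 57.9 at the highest. The uninfarcted groups overlapped, and in 6 of 7 MI+CIH hearts the level exceeded that of each MI heart in the set. Its difference was 1.18 (0.13 to 2.24, unadjusted p = 0.0297), or 1.03 with the set. miR-34c-3p, with the same seed, differed by 1.10 (unadjusted p = 0.0411) and miR-34c-5p by 0.98 (unadjusted p = 0.115). miR-34a-5p, from another chromosome, differed by -0.08. In the uninfarcted hearts alone miR-34b-3p and miR-34c-3p differed by -0.03 and -0.07, so the positive difference over 20 hearts came from the infarcted hearts.

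The epithelial list (the miR-200 family, miR-203, miR-205 and the miR-183/96/182 cluster) had 10 tested members. Of these 8 were positive in each fit, with medians of 0.78 and 0.66, and 2 had an unadjusted p under 0.05 in each (limma). Over all 360 miRNAs 245 and 206 were positive, with medians of 0.12 and 0.03. Under median-of-ratios scaling 7 of 10 were positive with a median of 0.65, beside 176 of 360. In uninfarcted hearts alone 5 of 10 were positive (median -0.01), beside 100 of 360. In infarcted hearts alone 10 of 10 were (median 1.24), beside 289 of 360. miR-200a-3p, which keeps epithelial cells from becoming mesenchymal by repressing Zeb1 and Zeb2, had 11.5, 8.91, 13.7, 37.9 and 12.9 RPM in sham and 14.4, 14.5, 59.1 and 7.17 RPM in CIH hearts. In MI hearts it had 122, 34.2, 13.6 and 12.3 RPM, and in MI+CIH hearts 29.7 at the lowest, 138 at the median and 228 at the highest. Exposed and unexposed hearts overlapped, with 10 of 11 exposed hearts above the unexposed median of their infarction state. Its difference was 1.07 (0.00 to 2.13, unadjusted p = 0.0492). miR-182-5p differed by 0.99 (unadjusted p = 0.0389) and its cluster mate miR-183-5p by 0.87 (unadjusted p = 0.0849), while miR-96-5p differed by -0.08.

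Epithelial miRNAs do not belong to the defining set of any major heart cell type. The summed 6 epithelial markers, none at 0 throughout, ran from 23.6 to 100.7 RPM in sham, 18.1 to 138 in CIH, 61.7 to 742 in MI and 105 to 988 in MI+CIH hearts. The highest uninfarcted value was that of CIH 3, which was also the highest uninfarcted heart for miR-375-3p, miR-34b-3p and miR-206-3p. The part of other tissue in these libraries was not tested.

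miR-206-3p marks skeletal muscle and is kin to the heart's miR-1. It had the largest difference of the 360, 1.92 (-0.02 to 3.87, unadjusted p = 0.0523), and 1.67 with the set (0.33 to 3.01, unadjusted p = 0.0173). Its levels were 0 to 0.183 RPM in the 5 sham hearts, and 0.140, 0, 4.74 and 0 RPM in the 4 CIH hearts. In MI 1 to 4 they were 2.29, 0.138, 370 and 0.882 RPM. In MI+CIH hearts they ran from 2.44 over a median of 89.9 to 437 RPM. The spread within the infarcted groups was more than 100-fold, and with MI 3 left out the difference became 2.72, with MI 2 left out 1.37.

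The lower miRNAs were few. In the fit with the set, miR-9-5p, a neural miRNA, differed by -0.53 (-0.92 to -0.13, unadjusted p = 0.0112), and by -0.47 (-1.25 to 0.31) without the set. It had 124, 105, 135, 140 and 129 RPM in sham and 116, 96.6, 98.8 and 120 RPM in CIH hearts, and 263, 129, 732 and 106 RPM in MI 1 to 4. MI+CIH hearts had 58.3 at the lowest, 193 at the median and 271 at the highest. Of the exposed hearts 3 of 11 lay above the median of the unexposed hearts of the same infarction state. miR-9b-3p, annotated on the strand opposite to miR-9 hairpins, had nearly the same values in every heart and is not a second observation. miR-208a-3p, which lies in an intron of Myh6 (the adult mouse heart's main myosin), differed by -0.65 with the set (unadjusted p = 0.0489) and by -0.74 without; it was named after its values were seen. let-7f-5p, an abundant let-7 member, was higher by 0.32 with the set (unadjusted p = 0.0268).

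miR-210-3p, the miRNA most directly induced by HIF-1, did not separate exposed from unexposed hearts. It was at 11.9, 5.26, 7.33, 4.21 and 4.83 RPM in sham 1 to 5 and at 4.47, 4.76, 0.967 and 6.41 RPM in CIH 1 to 4, so the groups overlapped and the lowest value was in a CIH heart. MI 1 to 4 had 23.8, 5.94, 13.6 and 17.4 RPM, and the MI+CIH hearts had 5.52 at the lowest, 17.9 at the median and 69.0 at the highest. The log2 difference was 0.14 (-0.79 to 1.06, limma adjusted p 0.998), or 0.07 (-0.79 to 0.94) with the set. The interval leaves room for a change of up to about 2-fold upward and less than 2-fold downward. miR-210-5p, its passenger arm, differed by 0.48 (-0.36 to 1.33). The 2 arms differed in direction between the infarction states. Without infarction 0 of 2 were positive (median -0.44), and with infarction 2 of 2 were (median 0.97). The 360 miRNAs as a whole leaned the same way, with 100 and 289 positive (medians -0.21 and 0.41). After median-of-ratios scaling the arms were still 0 of 2 and 2 of 2 positive (medians -0.40 and 0.59). Over all 360 miRNAs 187 and 177 were then positive. Leaving out sham 1 and MI 2 as well gave medians of -0.29 and 0.46 for the arms. Neither arm passed the test of the interaction given below.

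The wider list of miRNAs reported in hypoxic cultured cells (miR-23, miR-24, miR-26, miR-27, miR-103, miR-107, miR-181, miR-210 and miR-322) had 26 tested members. None had an unadjusted p under 0.05 in either fit. With infarction as second factor 16 of 26 were positive, beside 245 of 360 over all miRNAs. The list median of 0.02 was below the median of all miRNAs. Under median-of-ratios scaling 4 of 26 members of the list were positive with a median of -0.10, beside 176 of 360. Its most abundant members, miR-27b-3p and miR-26a-5p, differed by 0.01 and 0.14, with intervals of -0.60 to 0.63 and -0.44 to 0.72.

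Among the heart muscle miRNAs 1 of 9 tested entries was positive in both fits, and 1 of 9 also after median-of-ratios scaling. Over all 360 miRNAs 245 and 206 were positive in these fits, and 176 after the scaling. The median of the 9 was -0.25 without and -0.36 with the set. The positive entry was miR-208b-3p, encoded in an intron of Myh7, the slow myosin gene that is re-expressed in failing mouse hearts, at 0.63 (-0.43 to 1.69). miR-1a-3p, the most abundant miRNA of the heart, had 189100 to 272800 RPM in sham, 245800 to 314200 in CIH, 150800 to 293900 in MI and 69200 to 262700 in MI+CIH hearts, and differed by -0.23 (-0.76 to 0.31). miR-499-5p, encoded in an intron of Myh7b, differed by -0.44 (-1.19 to 0.31). It was at 1751 to 4208 RPM in sham and 1923 to 4598 RPM in CIH hearts, and its difference was 0.31 without and -1.10 with infarction. miR-133a-3p, which restrains hypertrophy, differed by -0.09. miR-1b-5p counts the reads of miR-1a-3p a second time.

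Fibroblast, scar and inflammation miRNAs had wide intervals. miR-214-3p, from the Dnm3os transcript that also yields miR-199a, was at 198, 35.5, 21.0, 35.3 and 32.4 RPM in sham and at 33.0, 29.9, 23.2 and 22.4 RPM in CIH hearts, where only sham 1 stood far out. In MI hearts it had 708, 21.3, 1135 and 85.1 RPM, and in MI+CIH hearts 130 at the lowest, 643 at the median and 2407 at the highest. Its difference was 0.54 (-0.97 to 2.04), the direction being opposite in uninfarcted (-0.71) and infarcted (1.62) hearts. miR-21a-5p, raised in cardiac fibroblasts of failing hearts, had 100600 RPM in sham 1 and 17880 to 28620 RPM in the other 4 sham hearts, against 13120 to 16960 RPM in CIH hearts. Its difference over all hearts was 0.17 (-0.83 to 1.16). The leukocyte miRNA miR-223-3p differed by 0.42 (-0.40 to 1.25) and miR-146b-5p, which dampens NF-kappaB signalling, by 0.60 (-0.24 to 1.45).

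Of the other lists, the 4 endothelial entries were all negative, also after median-of-ratios scaling, with a median of -0.34 (miR-126a-3p -0.15, miR-126a-5p -0.34, which the entry miR-126b-3p counts a second time). The 5 miR-29 members, known to repress collagen messages, were all negative under both scalings, with a median of -0.17. Of the 14 let-7 members 11 were positive (median 0.27), of the 41 miRNAs of the imprinted Dlk1-Dio3 locus 32 (median 0.15, 21 positive after median-of-ratios scaling), and of the 11 miR-30 members 6 (median 0.00, 0 positive after it). No member of these 5 lists had an unadjusted p under 0.05 with infarction as second factor. The most abundant miRNAs not yet named had differences of 0.05 for miR-143-3p, 0.25 for miR-148a-3p, -0.24 for miR-378a-3p, -0.12 for miR-30d-5p, -0.35 for miR-30a-5p and 0.21 for miR-99a-5p.

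The exposed and unexposed hearts could be compared within each infarction state, and no heart was in both. The CIH difference without infarction (CIH minus sham) had a median of -0.21 with 100 of 360 miRNAs positive. That with infarction (MI+CIH minus MI) had a median of 0.41 with 289 positive. After median-of-ratios scaling the medians were 0.02 and -0.01, with 187 and 177 positive. That scaling centres each library by construction, and RPM are shares. Whether CIH lowered or raised miRNAs broadly in either state was therefore not tested. The signs were opposite for 245 miRNAs (68.1%), 72 were higher and 43 lower in both states, and Pearson's r across miRNAs was -0.12, as a description. The sign of r rested on single hearts: it was 0.09 without MI 3, 0.02 without MI+CIH 1 and -0.40 without CIH 3. Among the uninfarcted hearts alone, no miRNA had all CIH hearts above all sham hearts (0%), and 10 had all of them below (2.78%), namely miR-15a-5p, miR-16-5p, miR-21a-5p, miR-23a-3p, miR-29b-3p, miR-132-3p, miR-148b-5p, miR-361-5p, miR-652-3p and miR-669c-5p. miR-16-5p, for instance, had 277 to 513 RPM in sham and 165 to 256 RPM in CIH hearts, and miR-23a-3p 516 to 967 RPM and 350 to 478 RPM. In the infarcted hearts both were higher with CIH, by 0.72 and 0.50.

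**Figure D4:**
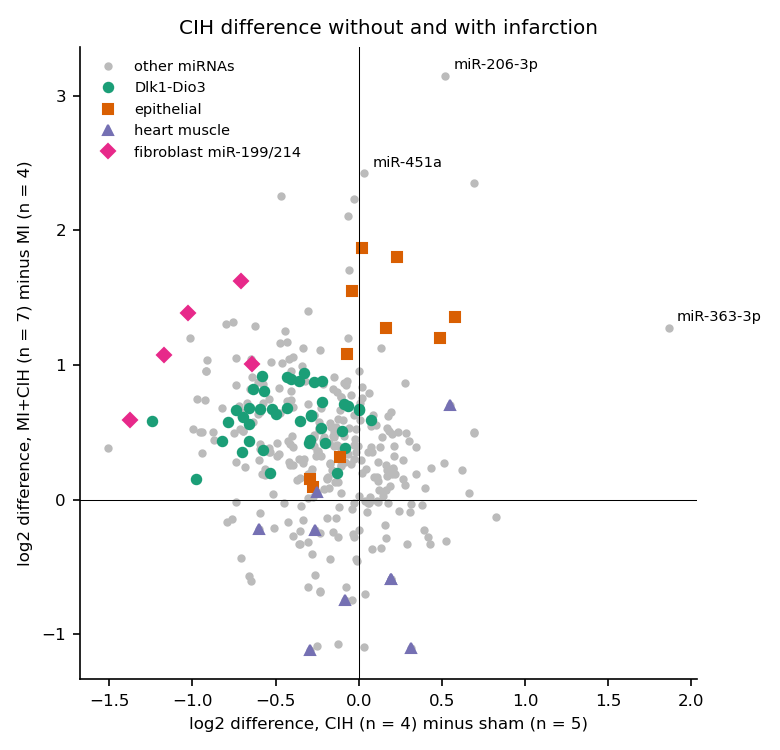
The log2 CIH difference of each of the 360 tested miRNAs without infarction (horizontal) and with infarction (vertical), with 4 lists in colour. The upper left field, lower with CIH without infarction and higher with it, holds most members of the Dlk1-Dio3 list (green) and all 5 of the miR-199 and miR-214 list (pink), while miR-363-3p is the only miRNA above 1 on both axes. Of all 360 miRNAs 245 had opposite signs.

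Several lists lay on opposite sides in the 2 states, as did the 360 miRNAs as a whole, of which 100 and 289 were positive. Of the 41 Dlk1-Dio3 miRNAs 3 were positive without and 41 with infarction (medians -0.41 and 0.63). Of the 5 members of the miR-199 and miR-214 list 0 and 5 were positive (medians -1.03 and 1.08). Of the 8 members of the miR-15/16 family, which holds back the cell cycle, 1 and 8 were positive (medians -0.59 and 0.61), and of the 4 miR-34 members 0 and 4 (medians -0.27 and 2.17). Over the 20 hearts, with infarction as second factor, the medians of these 4 lists were 0.15, 0.24, 0.09 and 1.04. Sham 1 and MI 2 weighed on these counts. Without sham 1, 13 of 41 Dlk1-Dio3 miRNAs and 3 of 4 miR-34 members were positive in uninfarcted hearts. The Dlk1-Dio3 share was then near that over all miRNAs (119 of 360, median -0.11). Without MI 2, 35 of 41 Dlk1-Dio3 miRNAs were positive in infarcted hearts, beside 187 of 360 over all miRNAs (median 0.03). Without both hearts the miR-199 and miR-214 list had 0 and 5 of 5 members positive (medians -0.44 and 0.57), and the miR-15/16 family 1 and 7 of 8. Over all miRNAs 119 and 187 of 360 were then positive, and the signs were opposite for 59.4%. Without MI 3 the median over all miRNAs in infarcted hearts was 0.64, and without MI+CIH 1 it was 0.61. After median-of-ratios scaling 7 and 35 of 41 Dlk1-Dio3 miRNAs were positive, 0 and 5 of 5 of the miR-199 and miR-214 list, 1 and 5 of 8 of the miR-15/16 family and 2 and 3 of 4 of the miR-34 members. With that scaling and without sham 1 and MI 2, the Dlk1-Dio3 counts were 20 and 32 of 41, beside 193 and 171 of 360 over all miRNAs. With all hearts kept, 187 and 177 of the 360 miRNAs were positive after the scaling, and 230 were opposite.

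**Figure D5:**
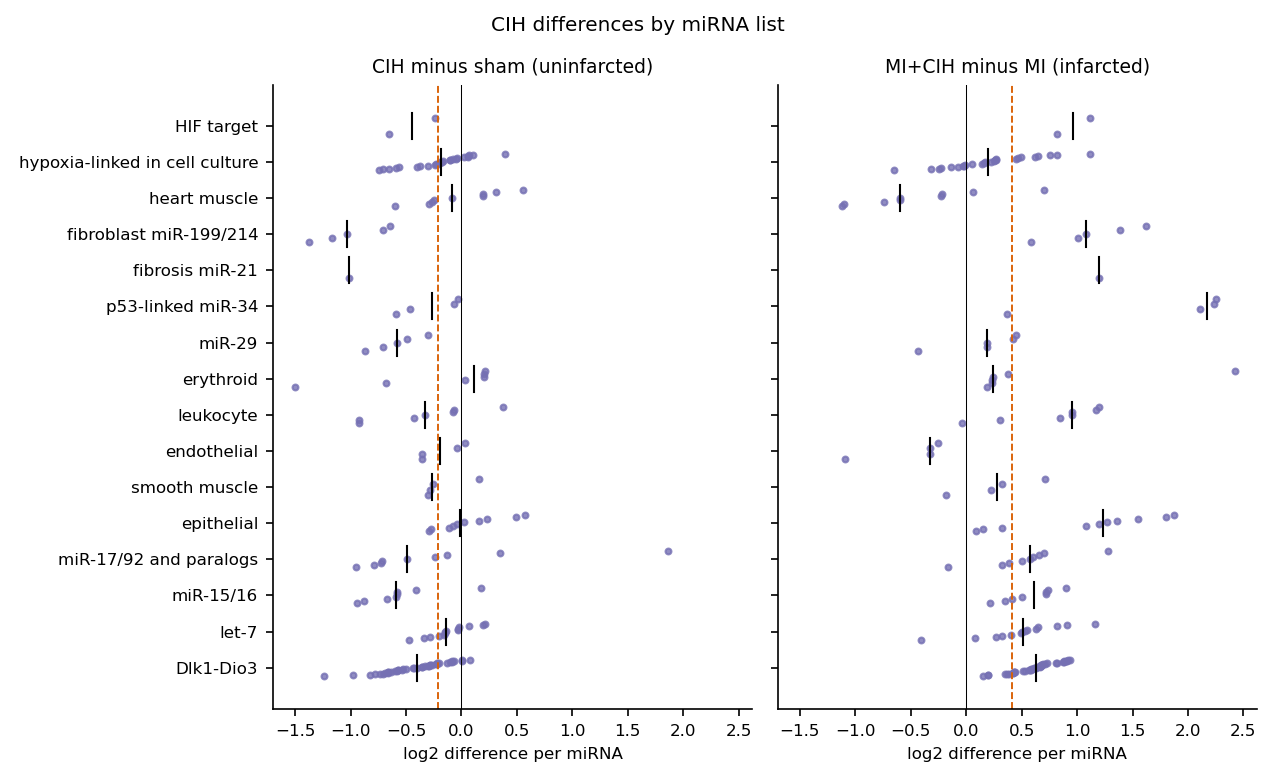
Log2 CIH difference of every tested member of 16 lists, without infarction at the left and with infarction at the right, with the list median as a black bar and the median of all 360 miRNAs as a dashed line (-0.21 and 0.41). Most list medians follow the dashed line to the left of 0 in the one state and to the right in the other, while the medians of the heart muscle and endothelial lists lie below 0 in both; after median-of-ratios scaling the heart muscle median without infarction is 0.19 and the endothelial one 0.08.

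The difference between the states was tested as the interaction of CIH and infarction. No miRNA passed (limma, 0 of 360, 0%), with a smallest adjusted p of 0.880, and 14 had an unadjusted p under 0.05 (3.89%), 13 of them with the more positive CIH difference in infarcted hearts. Over all tested miRNAs 292 of 360 leaned that way, with a median interaction of 0.63. By edgeR and by DESeq2 0 were called, and 13 and 18 had an unadjusted p under 0.05. The smallest unadjusted p belonged to miR-21a-5p, at 0.0183, with differences of -1.01 without and 1.20 with infarction. Of the 14, 1 was lower, miR-499-5p, with an interaction of -1.41 (unadjusted p = 0.0488). Without sham 1 and MI 2 together, 2 had an unadjusted p under 0.05, and with the library set as a further term 66 had, with a smallest adjusted p of 0.185 (limma). The median 95% half-width of the interaction was 1.88 on the log2 scale, so for a typical miRNA a smaller difference between the states was not detectable with these hearts.

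Within sets, the infarcted hearts gave these values. For miR-375-3p, MI+CIH minus MI was 1.05 in set A, 1.80 in set B and 3.24 in set C. For miR-451a it was 0.68, 3.57 and 1.29, for miR-34b-3p 0.75, 1.80 and 3.25, and for miR-200a-3p 0.68, 1.14 and 3.80. These 4 were higher with CIH in each set. They are among the miRNAs with the smallest unadjusted p over these same hearts, so part of this agreement is built in. The share of all tested miRNAs that were higher in each set is not given here, so the agreement has no background to compare with. For miR-363-3p the values were -0.23, 2.86 and -0.99, so that its positive difference was in set B. For miR-9-5p they were -0.62, -0.93 and -0.62. In sets A and C there is only 1 MI heart to compare with, so these values have no replicate check there.

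The share of the spread over the 20 hearts that each term took gives the scale of the comparison. For the median miRNA, CIH alone took 3.42%, infarction alone 36.1% and the library set alone 79.5%. The sets were drawn from these same values, so a large share for them is built in. No uninfarcted heart lay outside set A, so the share of the set overlaps with that of infarction. The 79.5% can therefore not be ranked against the shares of CIH and infarction. After infarction, CIH took a further 0.60% at the median and at most 23.9%, for miR-451a. After infarction and set it took 0.374%. CIH took over 10% of the spread after infarction for 5 of 360 miRNAs.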

How the data were processed

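The data are 20 small RNA libraries, 1 per heart, made per the labels' protocols from Trizol-extracted RNA of flash-frozen hearts with a NEBNext kit. The deposited table calls its values TPM; by the values they are RPM computed by the authors, since each column sums to 1000000 and every value (100%) equals a whole number of reads within 0.05, from which the reads were recovered. Per the submitters' processing notes the build was mm10 and the tools were DESeq 1.8.3 and Bowtie, whose roles are not stated; the miRBase release is not given in the sources used here. Of the 1545 entries 118 are predicted, 2 of them tested, and 12 of the 360 tested entries repeat another within 5% in every library; these copies held 7.79% to 31.6% of reads.

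limma 3.58.1 (R 4.3.3, trend, two-sided) was fitted to log2(RPM + 1) over all 20 hearts, as infarction plus CIH (17 residual degrees of freedom), with the library set added (15), and as an interaction (16), with Benjamini-Hochberg adjustment over 360 miRNAs and a threshold of 0.05. The sets came from average linkage on 1 minus Pearson's r, cut at 3. Adjusted p without a tool named are from limma. edgeR 4.0.16 and DESeq2 1.42.0 on recovered reads were alternatives; limma stayed the main test because RPM are deposited. Fits were tested on simulated data. The miRNAs and lists were chosen with earlier results of these data known, so lists are described by counts and medians, with no test. Named are the miRNAs with the 10 smallest p in each fit, the 10 most abundant, up to 4 examples per list and a fixed set of markers; others, such as those separated within uninfarcted hearts or a list's remaining members, were named after their values were seen. Fold changes on the log2(RPM + 1) scale understate changes of rare miRNAs. Hairpin positions are from GENCODE M21 on GRCm38.p6, and 306 of 360 miRNAs had a RefSeq sequence. The alternatives are listed in the closing section.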

Additional observations from a re-analysis of the deposited data

Results flagged for a closer look

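Among 52 groups of 4 to 7 hearts, for 13 miRNAs, 5 held a heart whose gap to its nearest neighbour was large for the range of its group by Dixon's criterion. Its rate by chance, about 1 in 20 groups, holds for independent, normally spread values. The miRNAs include the neighbours miR-34b-3p and miR-34c-3p, so the 5 of 52 cannot be set against that rate. Of the 5 flagged values, 3 were in the same heart, CIH 3. It had 2.71 RPM of miR-34b-3p and 2.32 RPM of miR-34c-3p, where the other CIH hearts had at most 0.559 and 0.167 RPM. It also had 4.74 RPM of miR-206-3p, against at most 0.140 RPM. MI 3 had 95.7 RPM of miR-451a, the lowest of all 20 hearts, where the other MI hearts had 669 to 916 RPM. Sham 4 had 37.9 RPM of miR-200a-3p, where the other sham hearts had 8.91 to 13.7 RPM.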

How the results depend on the processing

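The count of miRNAs past the threshold was 0 in all 3 fits under both other pseudocounts, both other filters, both other scalings, edgeR, removal of entries that repeat another, and each of the 20 hearts left out in turn (0 to 0 called), or sham 1 and MI 2 together. Exceptions were DESeq2, which called 1 with infarction as second factor and 1 with the set, and sample quality weights, whose estimation did not converge, with 2 called in the first fit, miR-363-3p (2.19, adjusted p 0.00303) and miR-208b-3p (1.34, adjusted p 0.0197, limma). Under these weights miR-200a-3p turned to -0.12 and miR-200b-3p to -0.42. In uninfarcted hearts only, miR-34b-3p turned to -0.027 and miR-34c-3p to -0.066. The cause was not tested. With the replicate number as a block (replicate block), 0 were called in each fit. Over 25 pairs with the same number the deviations correlated at -0.711 to 0.867 (median -0.014), 10 of them over 0.1. Over 122 pairs with different numbers they correlated at -0.816 to 0.903 (median -0.011), 50 of them over 0.1. Pairing by number was thus not seen, but with so wide a range this check cannot exclude it. With 1 heart left out, unadjusted p under 0.05 ran from 3 (without MI 2 or MI 3) to 9 in the first fit, 6 (without MI 4) to 17 in the second and 6 (without sham 1 or MI 2) to 30 (without MI+CIH 4) in the interaction; with no infarction term it was 8 and the median difference 0.38. Settings for the comparison within infarction states were chosen after seeing the data, and the number of opposite signs was 225 to 268 without sham 1, MI 2, MI 3, CIH 3 or MI+CIH 1 (the only hearts left out here) or with median-of-ratios scaling, and 59.4% of 360 without sham 1 and MI 2 together. Depth limits the rarest miRNAs: 1 read was worth up to 0.502 RPM.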
